A study of Drosophila melanogaster with 9 samples.

Results

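The Antennapedia complex of *Drosophila melanogaster* was examined for binding of the architectural protein Pita and of its partner CP190 in embryos of a pair of transgenic lines. All peaks with a summit on chromosome 3R between positions 6650000 and 7010000 (dm6) were taken, a stretch of 360.0 kb that holds the 6 genes *lab*, *pb*, *Dfd*, *Scr*, *ftz* and *Antp*. These were 99 of the 29281 peaks in the 4 peak lists of the study. The Pita wt line expressed full-length Pita with a 3xFLAG tag, and the Pita ΔCP1+2 line expressed the same tagged protein without its CP190-interacting regions. Both transgenes were driven by the ubiquitous Ubi-p63E promoter from the same landing site on the third chromosome, and for all samples the labels give Oregon-R as the strain and whole embryos as the tissue. The study crossed the transgenes into a *pita* mutant background, in which it detected no endogenous *pita* mRNA. Its ChIP-seq methods do not say whether the embryos had that background, so untagged Pita may have been present. The labels give an age of 0 to 12 h and the methods 8 to 16 h. FLAG and CP190 were each precipitated in 2 replicates per line, and 1 preimmune sample of Pita wt served as the control for every list.

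The genes of the complex encode homeodomain transcription factors that are expressed in successive parts of the head and anterior thorax and give these segments their identity. Pita is a zinc-finger protein that recognises a long DNA motif, and CP190 is a BTB-domain protein that is brought to insulators and promoters by proteins of this kind. In the other homeotic cluster, the Bithorax complex, such proteins are known at the boundaries between regulatory domains. The peak lists therefore ask where FLAG and CP190 peaks were called within the Antennapedia complex. They also ask which of those places were still called when the tagged Pita lacked its CP190-interacting regions.

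The replicates were pooled by the authors into 1 list per antibody and line, so no difference between lists could be set against a spread between replicates, and no test was made. In the study's supplement, the self-consistency ratio of the replicates was higher for both Pita wt lists than for both lists of the other line. For Pita wt it lay above the limit that the methods give for acceptable reproducibility, so agreement between replicates was poorer there. As strength, the authors gave a ratio to the preimmune sample, here called fold enrichment. Since the lists are not on one scale, each peak was also given its rank within its own list, where rank 1 is the strongest. A peak that is missing from a list fell below the authors' threshold there, which does not show that the protein was absent. Nor does a FLAG peak alone show binding by Pita. The study's methods allow for non-specific FLAG signal and separate FLAG peaks with the Pita motif from those without it. The read depth behind the peaks was not analysed here and is unknown.

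The Antennapedia complex held 25 of the 6901 FLAG peaks of Pita wt, 21 of the 7365 FLAG peaks of Pita ΔCP1+2, 30 of the 6586 CP190 peaks of Pita wt and 23 of the 8429 CP190 peaks of Pita ΔCP1+2. Windows reaching 250 bp to either side of each summit were joined where they overlapped, and the 99 peaks formed 40 sites. The sites included 5 in *lab*, 6 in the cuticle genes next to it and 10 in *Antp*. Stretches of 30.0 kb inside *pb*, 28.1 kb between *Ama* and *Dfd*, and 30.9 kb across the 5′ end of *Antp* held no summit of any list.

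**Figure D1:**
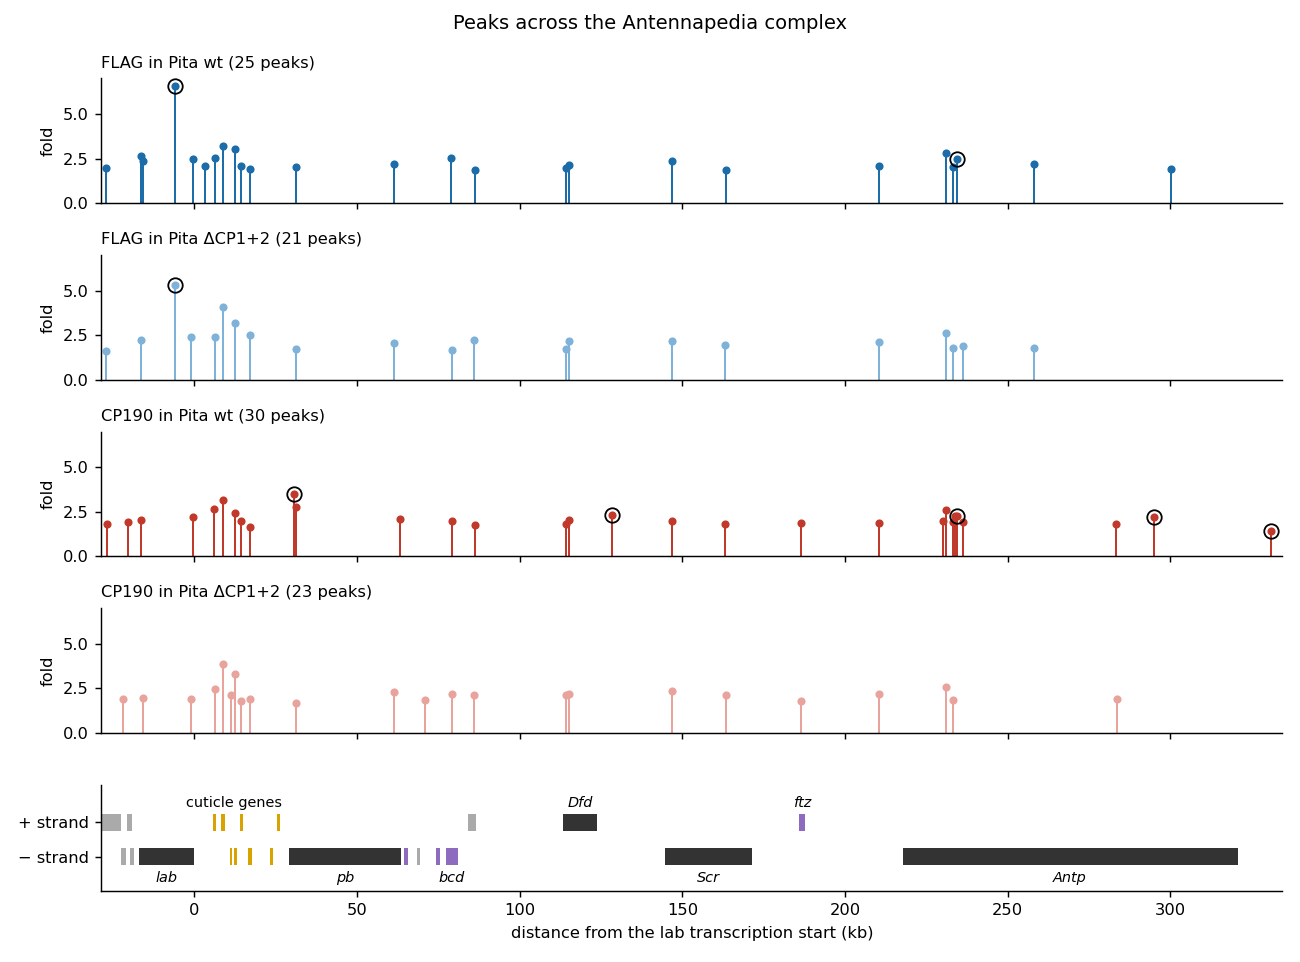
Fold enrichment over the preimmune sample (y axis, the authors' ratio) of each of the 25, 21, 30 and 23 peaks of the 4 lists against distance in kb from the *lab* transcription start (x axis), with protein-coding genes below by strand (black, homeotic genes; purple, other homeobox genes; yellow, cuticle genes; grey, other genes). Circled peaks hold a match to the Pita matrix at a p of 1e-05; the tallest peak, in an intron of *lab*, is in both FLAG lists and in neither CP190 list.

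Of the 40 sites, 6 held a match to the 21-position Pita matrix of the study at a p of 1e-05. This was 15.0%, beside 2.74% of the 12136 sites on the chromosome arms. The matching sequences are shown because none of these sites had a CP190 peak in Pita ΔCP1+2. Each is written 5′ to 3′ on its own strand, from the dm6 genome, and capitals mark the bases that are the highest-weighted letter of the matrix at that position. Where the matrix gives C and G the same highest weight, C alone is marked and counted. From top to bottom they lie in an intron of *lab*, in an intron of *pb*, downstream of *Dfd*, at different places in the introns of *Antp*, and upstream of *Antp*.
lab intron: cCacAGCaaAGgCcCCAgCCA
pb intron: tCgTAGCtagtACACaAgCCA
Dfd downstream: aCTTAGCtaAtACACaAcCCt
Antp intron, nearer the 3′ end: GtTgAGCcGAGACAggAACCA
Antp intron, nearer the 5′ end: ctTcAGtcGAGACAtgAACCc
Antp upstream: ctgcAGCGGAGACACaAAaCg
The *lab* match occupies positions 6672706 to 6672726 on the plus strand of 3R and the *pb* match 6709089 to 6709109 on the minus strand. The match downstream of *Dfd* lies at 6806821 to 6806841 (plus). Those in *Antp* lie at 6912855 to 6912875 (plus) and at 6973438 to 6973458 (minus), and the one upstream of *Antp* at 7009609 to 7009629 (minus). The closest to the matrix was the first *Antp* match, with 16 of 21 best letters and a p of 4.4e-07, and the others had 13 or 14.

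CP190 was called at 5 of these 6 sites in Pita wt and at 0 of them in Pita ΔCP1+2. Over the whole CP190 list of Pita wt, 263 peaks held such a match and 79 of them, or 30.0%, overlapped a CP190 peak of Pita ΔCP1+2, so loss of the call at such sites was common outside the complex too. Among all CP190 peaks of Pita wt, with or without the motif, 75.1% had a partner in Pita ΔCP1+2. At the looser threshold of 0.0001, 7 CP190 peaks of the complex in Pita wt held a match and 1 of them had a partner within the windows, against 59.8% of the 905 such peaks in the list. Among those without a partner was the peak near the 5′ end of *lab*. By the deposited boundaries it did overlap a CP190 peak of Pita ΔCP1+2, which also covered the match. The association of motif matches with lost calls was noticed after the values were seen and is given as a description. The part that the poorer replicate agreement in Pita wt had in these lost calls was not tested.

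The strongest of these sites for CP190 lay in an intron of *pb* (proboscipedia, which directs the formation of adult mouthparts) and was shown by a single list. Its CP190 peak in Pita wt, with the summit at 6709065, had a fold enrichment of 3.51 and rank 173.5 of 6586, the best rank of any CP190 peak of Pita wt in the complex. No peak was called there in the CP190 list of Pita ΔCP1+2 or in either FLAG list. The sequence of 201 bases around the summit, on the plus strand at chr3R:6708965-6709165, is shown with the match in capitals, which there reads as its complement.
pb intron window: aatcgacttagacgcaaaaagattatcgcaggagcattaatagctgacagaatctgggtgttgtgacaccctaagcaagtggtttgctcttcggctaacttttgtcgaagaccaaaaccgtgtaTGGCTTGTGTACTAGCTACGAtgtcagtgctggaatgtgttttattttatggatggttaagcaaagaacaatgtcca
The middle of the match lay 34 bp from the summit, and the window of 250 bp on each side had a GC content of 32.2%, the lowest of any member.

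The site with the best match lay in an intron of *Antp* (Antennapedia, which specifies the second thoracic segment), 19923 bp downstream of the last of its 3 annotated starts. FLAG was called there in Pita wt with a fold enrichment of 2.50 and rank 1298.5 of 6901. CP190 was called there in Pita wt with a fold enrichment of 2.24 and rank 2039.5 of 6586. Neither list of Pita ΔCP1+2 held a peak, so it was the site of the complex where both proteins were called in Pita wt, neither in the mutant line, and the strict match was present. The plus strand of chr3R:6912831-6913031 is shown with the match in capitals.
Antp intron window: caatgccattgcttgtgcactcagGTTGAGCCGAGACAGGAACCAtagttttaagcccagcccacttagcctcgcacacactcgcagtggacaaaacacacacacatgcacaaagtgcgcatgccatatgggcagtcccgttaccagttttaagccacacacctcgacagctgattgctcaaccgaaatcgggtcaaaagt

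The other 3 of these CP190 sites were called by CP190 in Pita wt alone. The site downstream of *Dfd* (summit 6806884) had a fold enrichment of 2.34 and rank 1491, that in the distal intron of *Antp* (summit 6973460) had 2.19 and rank 2372, and that upstream of *Antp* (summit 7009449) had 1.41 and rank 6569. The last was thus among the weakest peaks of its list. In all, 8 of the 40 sites were seen by CP190 in Pita wt alone, against 6.54% of the 12173 sites of the genome, and 4 of the 8 were the motif sites just described. The remaining 4 lay in *twr*, near the start of *pb* (summit 6741642, in the 5′ UTR, rank 3051), and at 2 places in *Antp* (ranks 4301.5 and 2029).

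The strongest site of the complex, that in the *lab* intron, behaved differently from the other sites with a strict match. *lab* (labial) is the most proximal homeotic gene of the complex and acts in the head and midgut. The site ranked 10 of 6901 for FLAG in Pita wt, with a fold enrichment of 6.58 (summit 6672752), and 6 of 7365 for FLAG in Pita ΔCP1+2, with 5.31 (summit 6672782). Both FLAG lists therefore held it near their top, and neither CP190 list held a peak there. It lies 5808 bp from the upstream *lab* start, and an INE-1 element, a short transposable element remnant, is annotated at 6672583 to 6672639, inside the 250 bp window. The plus strand of chr3R:6672667-6672867 has the match in capitals and, to its right, a run of repeated GGTT units.
lab intron window: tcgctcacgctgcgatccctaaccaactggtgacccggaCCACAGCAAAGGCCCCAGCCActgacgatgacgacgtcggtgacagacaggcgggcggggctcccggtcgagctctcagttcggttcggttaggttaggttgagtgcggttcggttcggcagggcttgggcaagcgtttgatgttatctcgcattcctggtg
When peaks were ranked by their p-value, the site stood at rank 12 in Pita ΔCP1+2. FLAG peaks shared by both lines and without CP190 in either were not rare: they made up 10.8% of the 4938 shared FLAG peaks of the genome and 2 of the 19 in the complex. The second lay in an *Antp* intron (summits 6936767 and 6936784), with FLAG ranks of 2796 in Pita wt and 6396 in Pita ΔCP1+2 and no match at 0.0001. CP190 was called in both lines at 14 of the 19 shared FLAG peaks, against 69.4% of those in the genome.

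**Figure D2:**
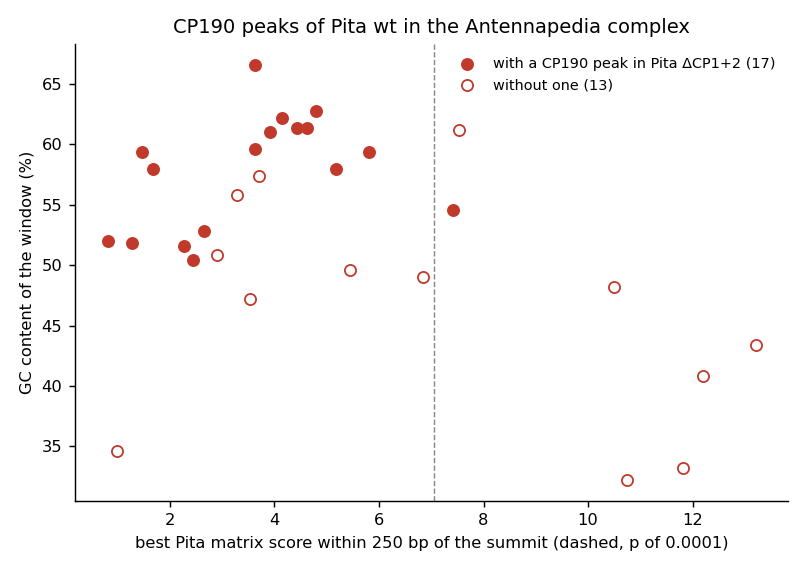
Best score of the Pita matrix within 250 bp of the summit (x axis) and GC content of that window in percent (y axis) for the 30 CP190 peaks of Pita wt in the complex. Filled points have a CP190 peak in Pita ΔCP1+2 (17) and open points have none (13); the 5 peaks with the highest scores are all open and lie between 32.2% and 48.2% GC.

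The 13 CP190 peaks of Pita wt without a partner in Pita ΔCP1+2 differed in sequence and position from the 17 with one. Their median GC content was 48.2% against 59.4%, and over the whole list the same medians were 52.6% and 57.6%. A summit in a coding exon was found for 5 of the 13 and for 14 of the 17. The corresponding shares of the list were 55.8% and 85.6%, so both the complex and the list had more coding summits among the peaks present in both lines.

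Most FLAG peaks and most CP190 peaks of the complex had a partner in the other line. Of the FLAG peaks, 19 of 25 in Pita wt had a partner in Pita ΔCP1+2, beside 71.6% of the list, and 19 of 21 in Pita ΔCP1+2 had a partner in Pita wt, beside 66.8%. For CP190, 17 of 30 peaks of Pita wt had a partner, beside the 75.1% given above, and 17 of 23 peaks of Pita ΔCP1+2 had one, beside 58.7%. For the peaks of Pita wt, the FLAG share lay near that of its list and the CP190 share was lower than that of its list, and for the peaks of Pita ΔCP1+2 both shares were higher than those of the lists. Between antibodies, 19 of 25 FLAG peaks of Pita wt overlapped CP190 in that line (65.2% of the list), and 16 of 21 did so in Pita ΔCP1+2 (73.5%). Conversely, 19 of 30 CP190 peaks overlapped a FLAG peak in Pita wt (68.2%) and 16 of 23 in Pita ΔCP1+2 (64.2%). Among these overlaps between antibodies, the largest gap to a list was that of the FLAG peaks of Pita wt, 76.0% against 65.2%. The lists share 1 preimmune control, so overlap between them is not independent, and the part of that control in these shares was not tested. With other windows or overlaps, or among the 5000 peaks per list with the best scores, the share of CP190 members of Pita wt with a partner ranged from 36.4% to 73.3% and was below that of the list, coming closest with 500 bp to either side (22 of 30, beside 79.7%). With a fold enrichment of at least 3 it was 1 of 2, beside 32.0%. For FLAG the share fell below that of the list among those 5000, where 10 of 21 members had a partner beside 65.7%.

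**Figure D3:**
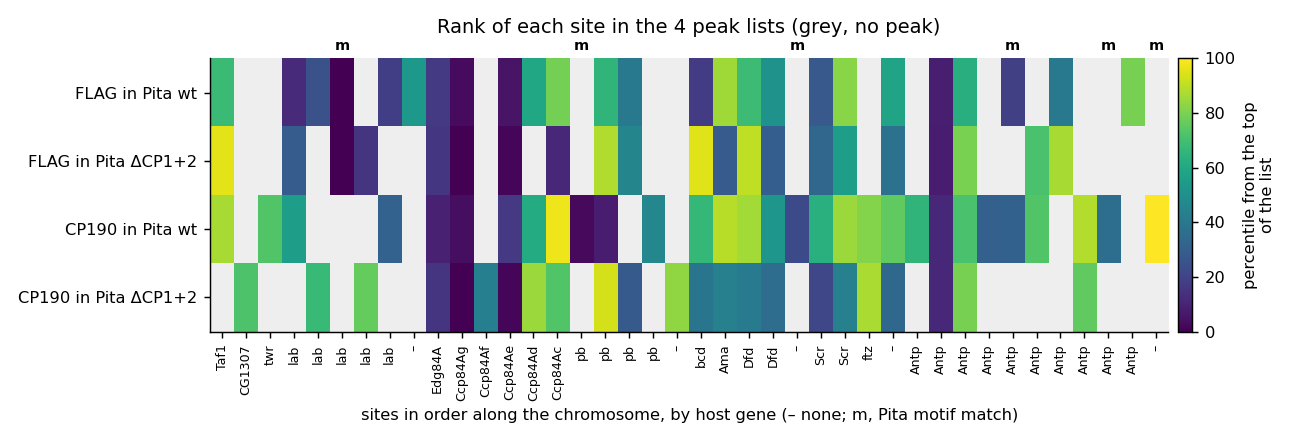
The 40 sites in order along the chromosome (x axis, named by host gene) in each of the 4 lists (rows), coloured by percentile from the top of the list, where 0 is the strongest peak and grey is no peak. The letter m marks the 6 sites with a Pita matrix match at 1e-05, none of which has a peak in the lowest row.

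All 4 lists shared 14 of the 40 sites, beside 28.5% of the sites of the genome. Of the 14, 12 lay in a coding exon, beside 78.0% to 83.5% of the summits of the lists. None held a match at 1e-05, beside 2.74% of all sites, and 1 held a match at 0.0001, beside 12.2%. These counts lay near the shares over all features. None of the 6 motif sites could be among the 14, because none had a CP190 peak in Pita ΔCP1+2. The median GC content of the 14 was 58.8%, compared with 41.6% for the 6 motif sites. The GC content of sites in all 4 lists ranged from 49.5% to 66.9%, and that of the motif sites from 32.2% to 48.6%, so the ranges did not overlap. Over all peaks, the medians of the lists lay between 56.4% and 56.8%. Coding exons held 0 of the 6 motif sites and 12 of the 14. The difference in GC content thus cannot be told apart from that in position relative to coding exons.

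The highest-ranked of the shared sites lay in genes for cuticle proteins between *lab* and *pb*, which are not homeotic genes but a tandem family within the complex. The site in *Ccp84Ag* (summits 6687331 to 6687380) ranked 215 and 16 for FLAG in Pita wt and Pita ΔCP1+2, with fold enrichments of 3.23 and 4.09. Its CP190 ranks were 234.5 and 29, with fold enrichments of 3.19 and 3.89. Both antibodies therefore placed it higher in the mutant line. The plus strand of its coding sequence, at chr3R:6687256-6687456, is shown for contrast with the motif sites; it has a GC content of 75.1% and no match.
Ccp84Ag coding window: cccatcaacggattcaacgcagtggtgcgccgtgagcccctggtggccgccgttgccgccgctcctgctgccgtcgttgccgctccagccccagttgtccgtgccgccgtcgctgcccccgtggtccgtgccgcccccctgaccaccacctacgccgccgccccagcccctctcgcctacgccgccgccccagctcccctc
The site in *Ccp84Ae* (summits 6691098 to 6691149) also moved up, from rank 354 to 106 for FLAG and from 1095.5 to 116 for CP190. The site in *Ccp84Ac* (summits 6695615 to 6695656) moved from rank 5465 to 835.5 for FLAG, whereas its CP190 ranks were 6411 and 6155. The site in *Edg84A*, a cuticle gene first known as responsive to ecdysone, had similar FLAG ranks of 1175.5 and 1168 and CP190 ranks of 608.5 and 1297.

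*Ccp84Ad* had peaks in 3 lists, with ranks between 4061.5 and 7151.5 and none for FLAG in Pita ΔCP1+2, and *Ccp84Af* a single CP190 peak in Pita ΔCP1+2 at rank 3628. *Ccp84Aa* and *Ccp84Ab*, the members of the family closest to *pb*, had none, and the nearest summits lay 4981 and 6188 bp from their starts. The cuticle genes resemble each other in sequence, and a read shared by several copies could not be placed uniquely. The longest identical run between windows was 50 bp, between *Ccp84Af* and *Ccp84Ad*, and the windows in *Ccp84Ag* and *Ccp84Ae* shared at most 14 bp.

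**Figure D4:**
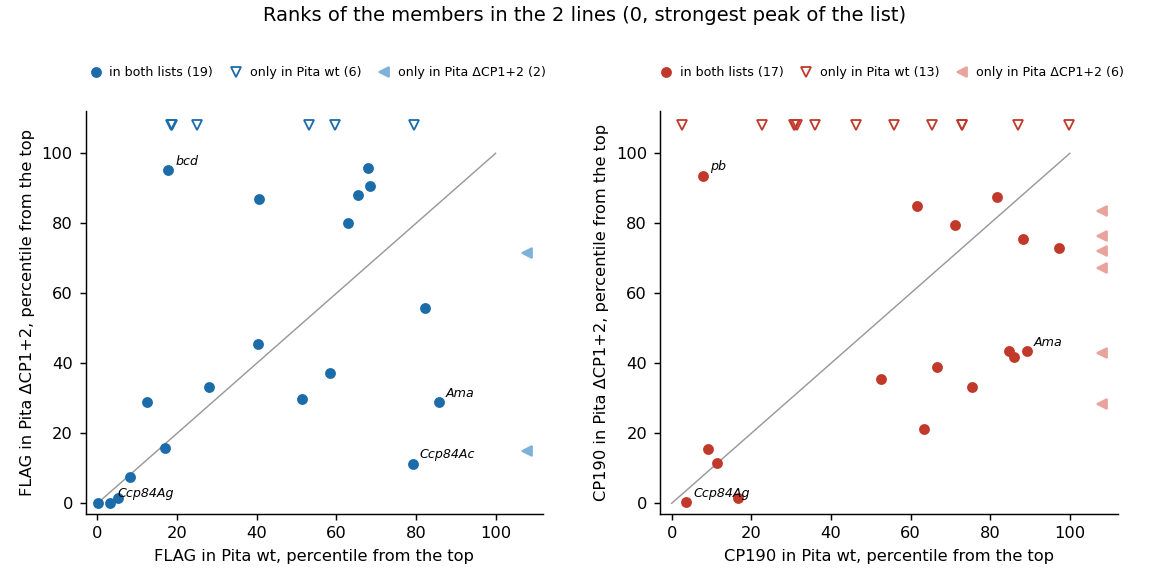
Percentile from the top of the list in Pita wt (x axis) and in Pita ΔCP1+2 (y axis) for the members called for FLAG (left, 19 in both lines) and CP190 (right, 17 in both lines), where 0 is the strongest peak. Triangles at the edges are members called in 1 line, 6 and 2 for FLAG and 13 and 6 for CP190; points below the diagonal stand nearer the top of the list by percentile in the mutant line.

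Among matched pairs, 10 of 19 FLAG peaks stood nearer the top by percentile in Pita ΔCP1+2 and 9 farther from it, and over the 4938 matched pairs of the lists 56.4% stood nearer. For CP190, 11 of 17 stood nearer the top by percentile in Pita ΔCP1+2 and 6 farther from it, beside 68.2% of the 4946 pairs of the list. The lists differ in length and in the share of peaks without a partner, so these counts are read only against the lists. The matched summits lay close together, with a median distance of 37 bp for FLAG and 29 bp for CP190.

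The largest fall for FLAG was at *bcd* (bicoid, whose maternal messenger RNA patterns the anterior of the embryo and which has no homeotic role), where the coding-exon site (summits 6757547 to 6757656) went from rank 1229 in Pita wt, with a fold enrichment of 2.52, to 7015 in Pita ΔCP1+2, with 1.65. CP190 was called there in both lines, at ranks 4386.5 and 3280. The site in *Ama* (Amalgam, a secreted cell adhesion protein) went the other way for FLAG, from rank 5916 to 2127, and its CP190 ranks were 5873.5 and 3664. No site lay in *zen* or *zen2*, homeobox genes of dorsal patterning, or in mir-993 or mir-10, microRNA genes of the complex. The nearest summit was 3353 bp from the *zen* start and 2432 bp from the nearer *zen2* start.

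Among the homeotic genes, *lab* (3R:6661427-6678590) held 5 sites. That in a coding exon near its 3′ end (summits 6662191 to 6662215) had FLAG ranks of 861 in Pita wt and 2136.5 in Pita ΔCP1+2 and a CP190 rank of 3686 in Pita wt alone. Near the 5′ end, the peaks of all 4 lists as deposited covered 1 region, from 6677217 to 6678329 in common, and only the summit within it differed. The summits of FLAG and CP190 in Pita wt lay 425 and 482 bp from the *lab* start (ranks 1278 and 2066), and those in Pita ΔCP1+2 lay 1117 and 1175 bp from it (ranks 1105.5 and 6432). The windows around the summits therefore counted as 2 sites, whereas with the deposited boundaries there were 39 sites in all, of which 15 were in all 4 lists. The windows of the Pita wt summits contained a match at 0.0001, with 11 of 21 best letters.
lab 5′ coding exon: aagcAGCatgtACggCAACCA
The match lies at 6678315 to 6678335 on the minus strand, with a p of 7.1e-05.

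*pb* (3R:6707800-6742063) held 4 sites. Less than 1 kb from the CP190 site in its intron lay a coding-exon site called in all lists (summits 6709789 to 6709850), whose CP190 rank went from 519.5 in Pita wt, with a fold enrichment of 2.74, to 7887.5 in Pita ΔCP1+2, with 1.70. This was the largest fall of any matched CP190 member. Its FLAG ranks were low in both lines, 4512 and 6494. It held the only match at 0.0001 among the sites of all 4 lists, with 12 of 21 best letters and a p of 7.8e-05.
pb coding exon: GagTAcCtaAGtCcCaAgCCA
A further coding-exon site of *pb* (summits 6739896 to 6739946) was called for FLAG in both lines and for CP190 in Pita ΔCP1+2, at ranks 2785.5, 3354.5 and 2401.

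*Dfd* (Deformed, which specifies maxillary and mandibular segments; 3R:6791836-6802428) and *Scr* (Sex combs reduced, of the labial segment and first thoracic segment; 3R:6823120-6849981) each held 2 sites, all in coding exons and all called in the 4 lists. At the *Dfd* site nearer to the start, the FLAG ranks were 4717.5 and 6667.5 and the CP190 ranks 5666.5 and 3520.5. At the other, the FLAG ranks were 3553 and 2189 and the CP190 ranks 3459.5 and 3005. The 3′ site of *Scr* had FLAG ranks of 1925.5 and 2445 and CP190 ranks of 4181 and 1798, and the 5′ site had FLAG ranks of 5686 and 4104 and CP190 ranks of 5584.5 and 3664. At all 4 sites CP190 stood higher in its list in Pita ΔCP1+2 than in Pita wt, while FLAG stood higher at 2 of them and lower at 2.

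*ftz* (fushi tarazu, a pair-rule gene within the complex; 3R:6864324-6866244) held a CP190 site and no FLAG peak in either line. The CP190 ranks were 5374 in Pita wt and 7366 in Pita ΔCP1+2, and the summit lay 561 bp from the *ftz* start in Pita wt. The nearest FLAG summit was 22319 bp from the start. A site between *ftz* and *Antp* (summits 6888891 to 6888912), outside annotated protein-coding genes, was called in all 4 lists with FLAG ranks of 4033 and 2749.5 and CP190 ranks of 4971.5 and 2801.

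*Antp* (3R:6896253-6999228) held 10 sites over 102976 bp, compared with 5 over 17164 bp in *lab*. Of its coding-exon sites, that with summits at 6909498 to 6909545 was called in all lists and ranked alike in both lines, whereas that at 6908659 was called for CP190 in Pita wt alone, at rank 4301.5. At the first, the FLAG ranks were 572.5 and 557, with fold enrichments of 2.82 and 2.64, and the CP190 ranks were 741.5 and 966, with 2.60 and 2.57. An intron site about 2 kb from it (summits 6911693 to 6911720) was called in all lists at ranks of 4346 and 5890 for FLAG and 4687.5 and 6704 for CP190. Counting it, 4 sites lay between 6911693 and 6914719. Of the 10 sites, 8 were called for CP190 in Pita wt and 3 in Pita ΔCP1+2, and 5 and 4 held a FLAG peak in these lines. Over the lists, 75.1% of CP190 peaks and 71.6% of FLAG peaks of Pita wt had a partner in Pita ΔCP1+2. The 8 include the *Antp* intron sites with a strict match described above. Further upstream in the introns, the sites without a match had ranks of 5483.5 (FLAG in Pita wt alone), and of 5820 and 6374.5 (CP190 in both lines).

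The share of FLAG summits near promoters was below that of the lists, and the share of CP190 summits lay close to that of the lists. By gene, the counts rest on at most 2 of the 6 genes. Of the 6 genes, 1 had a FLAG summit of Pita wt within 500 bp of an annotated start (*lab*), against 9.4% of the 13968 protein-coding genes, and 2 had a CP190 summit of Pita wt (*lab* and *pb*), against 9.58%. None had one in Pita ΔCP1+2, where the shares of all genes were 9.12% for FLAG and 10.1% for CP190. These counts use summits. The deposited FLAG and CP190 peaks of Pita ΔCP1+2 still covered the upstream *lab* start, with summits 1117 and 1175 bp from it. Counted by peak, 2 of 25 FLAG peaks and 5 of 30 CP190 peaks of Pita wt lay within 500 bp of the start of any protein-coding gene, beside 17.9% and 19.0% of the lists. In Pita ΔCP1+2 this held for 1 of 21 and 3 of 23, beside 16.6% and 15.8%. The nearest summits to any start of *Scr* and *Antp* were at 6500 bp and 3391 bp.

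Coding exons held 18 of 25 FLAG summits and 19 of 30 CP190 summits of Pita wt, beside 78.0% and 78.2% of the lists, and 16 of 21 and 18 of 23 in Pita ΔCP1+2, beside 79.8% and 83.5%. Except for CP190 in Pita wt, these coding shares lay near those of the lists. Introns held 5 of 25 FLAG summits and 7 of 30 CP190 summits of Pita wt, beside 9.21% and 7.92% of the lists. In Pita ΔCP1+2 they held 4 of 21 and 3 of 23, beside 8.71% and 6.75%, so the intron share was above the list for all 4 lists. A match of the Pita matrix at 0.0001 was found for 4 of 25 FLAG peaks of Pita wt (11.9% of the list), 2 of 21 of Pita ΔCP1+2 (10.9%), 7 of 30 CP190 peaks of Pita wt (13.8%) and 1 of 23 of Pita ΔCP1+2 (9.59%). In the mutant line the CP190 count was 3 of 23 when the deposited boundaries with 250 bp added were searched.

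Short words of other chromatin proteins were searched on both strands of the same windows; windows of 1 site overlap, and the words can overlap the Pita match. GAGAG, a core of GAGA factor sites, occurred in 17 of 25 FLAG windows and 15 of 30 CP190 windows of Pita wt, beside 48.9% and 47.4% of the lists, and in 11 of 21 and 15 of 23 of Pita ΔCP1+2, beside 49.7% and 47.6%. CGATA, a core bound by BEAF-32 and DREF, occurred in 12 FLAG and 12 CP190 windows of Pita wt, beside 39.4% and 40.0%. In Pita ΔCP1+2 it occurred in 8 of 21 FLAG windows, beside 39.4%, and in 5 of 23 CP190 windows, beside 39.0%. By site, TAATTA, a core of homeodomain binding, was found at 9 of 40 sites against 9.01% of all sites, GCCAT, the Pho core, at 33 against 78.0%, and AGNNGGC, a part of the CTCF motif, at 33 against 81.4%. The shares of CAGGTA, a Zelda word, and of TGCATA, a part of the Su(Hw) motif, were 10.0% and 20.0% of sites against 15.3% and 15.5%. A word in a window is a description of its letters and does not show binding.

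The Bithorax complex, taken between the outer ends of *Ubx* and *Abd-B* on the same chromosome arm, was the closest counterpart. Its 48 peaks gave 4.12 FLAG peaks per 100 kb in Pita wt, compared with 6.94 in the Antennapedia complex and 5.24 on 3R. For CP190 in Pita wt the densities were 4.12, 8.33 and 5.27. In Pita ΔCP1+2 they were 3.17, 5.83 and 5.69 for FLAG and 3.80, 6.39 and 6.49 for CP190. The Antennapedia complex was thus the denser of the clusters, but in Pita ΔCP1+2 its densities lay near those of 3R. Its interval also runs past the outer ends of *lab* and *Antp*, whereas that of the Bithorax complex stops at gene ends. The members of the Antennapedia complex stood lower in the CP190 list of Pita wt, with a median percentile from the top of 62.6 against 17.3. For FLAG in Pita wt the medians were 40.5 and 31.5. In Pita ΔCP1+2 the clusters were closer, with medians of 43.5 and 38.5 for CP190 and of 33.2 and 32.5 for FLAG. Of the 13 CP190 peaks of Pita wt in the Bithorax complex, 9 had a partner in Pita ΔCP1+2, and coding exons held 6 of the 13. A Pita match at 1e-05 was held by 3 of the 13, against 5 of 30 in the Antennapedia complex and 4.00% of the list. For FLAG in Pita wt it was held by 3 of 13, against 2 of 25 and 3.17%. Such matches were thus not particular to the Antennapedia complex.

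At the borders of the interval, the first members lay in *Taf1*, which encodes a subunit of the general transcription factor TFIID, and in *CG1307* and *twr*. They were weak, with ranks from 4695 to 7050. The nearest FLAG summits of Pita wt outside the interval were at 6636575 and 7053441, with ranks of 1895.5 and 2571.5, and the nearest CP190 summits of that line at 6636720 and 7072891, with ranks of 771 and 2472. The last member of the CP190 list of Pita wt, at 7009449, lay just inside the limit, and it is 1 of the 6 motif sites described above.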

How the data were processed

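ChIP-seq peaks of FLAG-tagged Pita and of CP190 came from 9 samples, 2 per antibody and line and 1 preimmune sample. According to the submitters' processing notes and the methods, reads were trimmed with cutadapt, aligned to dm6 with Bowtie version 2 and cleared of duplicates with Picard, and peaks were called with MACS2 and passed through the IDR pipeline. The labels name a single-end and the methods a paired-end run. The deposited fold enrichment, a ratio to the preimmune sample, and the −log10 p-value are the authors' values, as is the offset that gave the summit positions.

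Windows of 250 bp on each side of summits were matched with an overlap of at least 1 bp and joined into sites. Features came from Ensembl release 115 (BDGP6, which has the coordinates of dm6), and sequences from the dm6 RefSeq genome; peaks outside the chromosome arms, 18 to 28 per list, were left out of sequence and feature shares. The 21-position Pita matrix was read from the text of a supplement of the study, made there from other data, and scanned on both strands with exact p under equal base frequencies at 0.0001 and 1e-05. Sites were named with values if among the 10 best ranked, called in all 4 lists, holding a match at 1e-05, or the best of one of the 6 genes. Members, lists and rules were chosen with earlier results of these data known. The matching and scanning were tested on simulated data. Python 3.11.15, numpy 2.4.6, pandas 2.3.3 and matplotlib 3.10.9 were used.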

Additional observations from a re-analysis of the deposited data

How the results depend on the processing

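No paired analysis was possible because each list merges its replicates, and for the same reason no replicate could be left out. Of 81 comparisons of main counts and medians with an alternative, 55 stayed within 1.5 times and 26 did not. With the 5000 strongest peaks of each list, 13 CP190 peaks of Pita ΔCP1+2 remained in the complex, the lines shared 10 FLAG and 8 CP190 peaks, 10 FLAG peaks of Pita ΔCP1+2 overlapped CP190, and 7 sites were in all 4 lists; fewer peaks enter by construction. With a fold enrichment of at least 3 there were 3, 3, 2 and 2 members at 4 sites, of which 1 was in all lists. The lines then shared 3 FLAG and 1 CP190 peaks, and 1 FLAG peak of Pita wt and 2 of Pita ΔCP1+2 overlapped CP190. At a motif threshold of 1e-05, 2 and 1 FLAG peaks and 0 CP190 peaks of Pita ΔCP1+2 held a match. In the deposited boundaries with 250 bp added, 4 FLAG and 3 CP190 peaks of Pita ΔCP1+2 did at 0.0001, against 2 and 1. Ranking by −log10 p-value moved the median percentile of the FLAG members of Pita ΔCP1+2 from 33.2 to 51.4. With windows of 500 bp, an alternative chosen after seeing the data, 1 of the 5 CP190 motif peaks of Pita wt, that in *pb*, reached a CP190 peak of Pita ΔCP1+2, and with 100 bp or the deposited boundaries 0 did. The interval from *lab* to *Antp* kept every count within 1.5 times. Of 37 comparisons for short words and single ranks, 26 moved by more than that. The word counts were compared with windows of 100 bp, which are shorter, and the part of length in these moves was not tested.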
